A study of Mus musculus with 12 samples.

Results

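The 34 genes described here act in DNA damage signalling and repair. They were taken by name from the 24411 genes of the deposited tables, in 8 groups by repair route. All 34 were matched, and all 34 were counted deeply enough to be tested. RNA was sequenced from mouse blastocysts, early embryos made of an outer trophectoderm and an inner cell mass, in 12 libraries of 10 pooled embryos each. All embryos were wild-type ICR, an outbred stock, were made by in vitro fertilization of superovulated oocytes, and were cultured in KSOM medium to 96 hours post insemination (hpi). Diet was ND or HFD (not spelled out in the labels, while the series title speaks of normal weight and obese mice). Each diet had controls (C), embryos given a non-targeting siRNA (siNT) and embryos given a Nampt siRNA (siNampt), with siRNAs electroporated into zygotes at 3 to 6 hpi. The 6 groups, ND_C, ND_siNT, ND_siNampt, HFD_C, HFD_siNT and HFD_siNampt, had 2 libraries each, replicates 1 and 2, which are also the batch labels. The sources used here do not say whether C zygotes were electroporated. Separate fertilizations are not stated for the pools, so p-values measure only the spread between pools, which may be technical.

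Expected counts totalled 42473129 to 50503064 per library, and 14743 genes passed the filter on low counts. Trophectoderm was evident in each library, with Krt8 at 750 TPM or more (a level corrected for transcript length and scaled to a fixed total). Of 8 listed cumulus and granulosa cell markers, Serpine2 stood at 65.7 to 164 TPM and the other 7 at no more than 0.44 TPM. The summed level of 4 Y-linked genes ranged from 34.8 TPM in HFD_siNampt replicate 2 to 184 TPM in ND_siNT replicate 2. By treatment these sums were 34.8 to 174 TPM in siNampt, 83.4 to 184 TPM in siNT and 54.9 to 154 TPM in C. The summed level of 8 trophectoderm markers was 3440 to 5280 TPM in siNampt, 2780 to 3610 TPM in siNT and 3030 to 3850 TPM in C. Most of it was Krt18 and Krt8, each at 750 TPM or more, while Gata3, the next highest, had a median of 91.0 TPM. For 6 inner cell mass markers the range of the siNT sums held those of siNampt and C. Sums of 5 primitive endoderm markers overlapped, at 55.9 to 84.0 TPM in siNampt, 54.1 to 62.3 in siNT and 52.6 to 75.4 in C. The summed level of the 8 cumulus and granulosa cell markers was nearly all Serpine2. It was 88.2 to 164 TPM in siNampt, 65.7 to 107 TPM in siNT and 108 to 147 TPM in C, so siNT and C did not overlap. The part of these differences in the results was not tested.

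Nampt, the siRNA target, makes the NAD precursor nicotinamide mononucleotide, and poly-ADP-ribose polymerases use NAD when they mark broken DNA. Its counts scaled to a fixed library total with edgeR's TMM factors (CPM) were 53.9 and 37.7 in ND_siNampt (replicates 1 and 2), 50.3 and 44.0 in HFD_siNampt, 74.6 and 49.4 in ND_siNT, and 61.3 and 66.0 in HFD_siNT. In the controls they were 54.2 and 38.2 in ND_C, and 67.0 and 57.3 in HFD_C. The siNampt and siNT ranges overlapped. Over both diets the log2 difference was -0.43, with p = 0.0857 in the exact two-sided permutation test, which cannot go below 0.0286. In edgeR the difference was -0.43 (SE 0.17, 95% interval -0.795 to -0.073), with an unadjusted p under 0.05 and an edgeR adjusted p of 0.396. Nampt was lower in siNampt in each of the 4 pairs matched for diet and batch. The difference was -0.38 in batch 1 and -0.49 in batch 2, and with the batch as a block the SE was 0.14 (edgeR adjusted p = 0.330). Without ND_siNT replicate 1 the difference was -0.28, and on log2(TPM + 1) it was -0.27. Set against C over both diets, Nampt in siNampt was at -0.21 in edgeR (95% interval -0.571 to 0.151, edgeR adjusted p = 0.999). Nampt in siNT was at 0.22 against C (SE 0.17), so siNT lay above C and siNampt below it. By diet, the log2 difference of siNampt from C was -0.014 in ND and -0.396 in HFD.

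Cells meet DNA damage with sensors and kinases that stop the cell cycle, and with repair routes chosen by the kind of lesion. Atm and Atr are the apical kinases, and Chek2 and Chek1 are their main downstream kinases. Double-strand breaks are resected by the Mre11-Rad50-Nbn (MRN) complex and copied from a sister chromatid by homologous recombination, or are rejoined by end joining. Damaged bases go through base excision repair, copying errors through mismatch repair, bulky lesions through nucleotide excision repair, and crosslinks through the Fanconi pathway. Many of these genes are also expressed for DNA replication.

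Base excision and single-strand break repair, the route with the most genes here, held the bulk of the summed TPM. Its 8 genes summed to a median of 298 TPM per library (range 264 to 368), against 55.4 TPM (35.8 to 66.6) for the 3 end joining genes and 47.1 TPM (41.4 to 57.3) for the 6 signalling genes. The 5 homologous recombination genes summed to 11.6 TPM (9.88 to 14.4) and the Fanconi pair to 5.03 TPM (3.85 to 6.38). The ranges of the first route and of the others did not meet in any library. Apex1 and Polb, at medians of 156 and 77.6 TPM, made up most of the base excision sum. The median over the genes of that route was 12.6 TPM, below the 22.3 TPM of end joining. Over all 34, the median member stood at 6.10 TPM, against 2.90 TPM for all genes tested, and 21 members lay above that level. In bulk libraries, expression by fewer cells and less RNA per cell cannot be told apart.

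**Figure D1:**
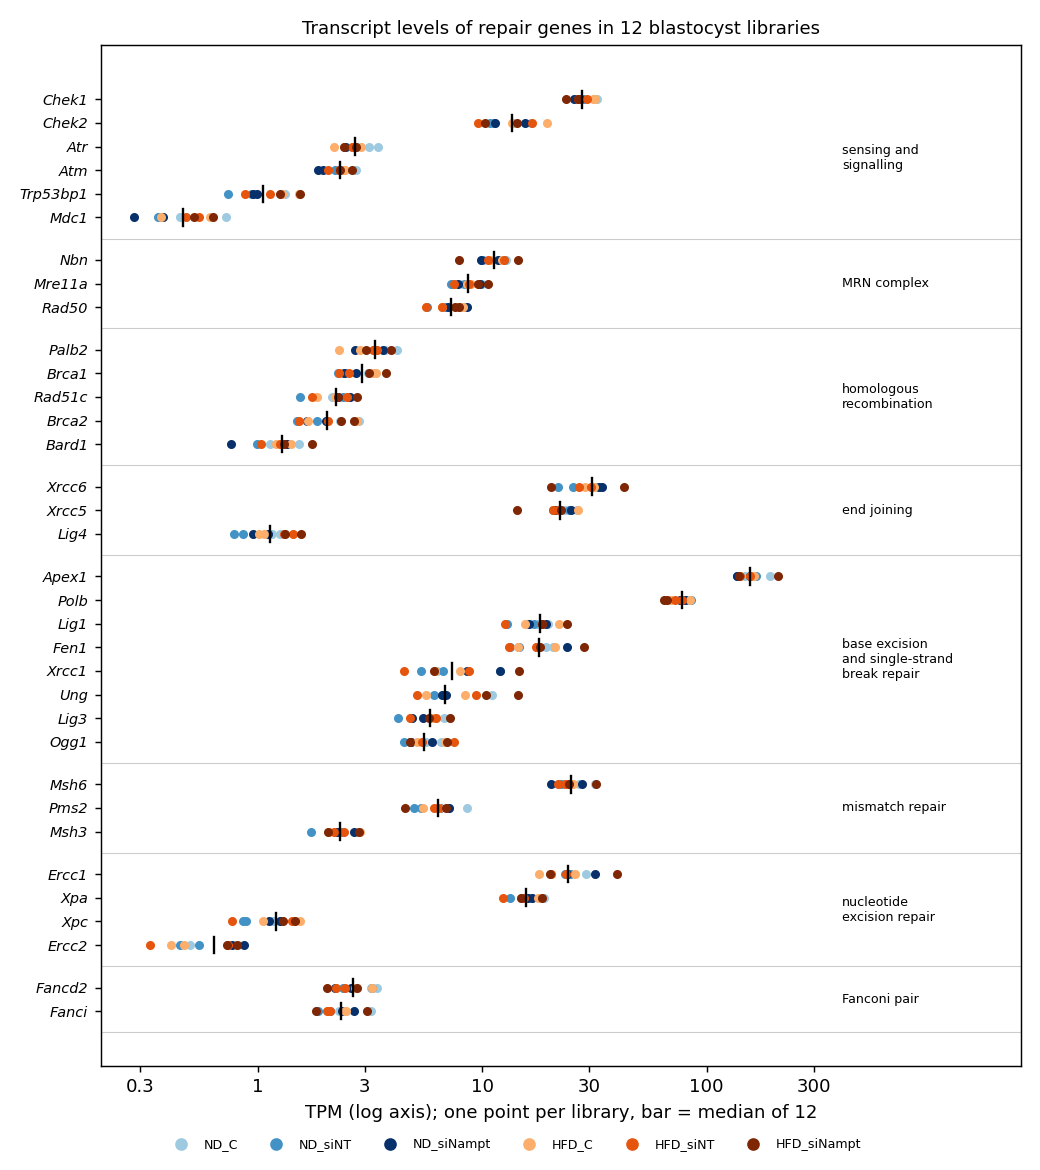
TPM of each of the 34 genes (log axis) in the 12 libraries, coloured by group and ordered within each repair route, with a bar at the median. Apex1 and Polb stand highest, at medians of 156 and 77.6 TPM, and Ercc2 and Mdc1 lowest, at 0.640 and 0.465 TPM.

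Apex1, the endonuclease that cuts DNA where a base has been removed, had the highest level of the 34. It stood at 191.07 and 148.71 TPM in ND_C, 165.49 and 136.19 in ND_siNT, and 156.30 and 136.96 in ND_siNampt. Under HFD its levels were 161.49 and 161.66 TPM in C, 156.60 and 140.74 in siNT, and 138.76 and 207.65 in siNampt. The groups overlapped, and the highest and the third lowest value belonged to the same group, HFD_siNampt. Apex1 alone made up 26.6% to 33.2% of the summed TPM of the 34 genes. Polb, the polymerase that fills the resulting gap, followed at 64.4 to 84.8 TPM, the narrowest span of the 34 genes (1.32-fold from lowest to highest).

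The glycosylases, which remove the damaged base, stood far below these enzymes. Ung, which removes uracil, had a median of 6.83 TPM (5.12 to 14.4), and Ogg1, which removes oxidized guanine, had 5.50 TPM (4.46 to 7.50). Ung was above 10 TPM in 3 libraries, ND_C replicate 2 (11.06), HFD_siNampt replicate 1 (10.42) and HFD_siNampt replicate 2 (14.36). The scaffold Xrcc1 had the widest span of the 34 genes, 3.25-fold, from 4.50 TPM in HFD_siNT replicate 2 to 14.61 TPM in HFD_siNampt replicate 2. Fen1, a nuclease that trims flaps in repair and replication, stood at a median of 17.9 TPM (13.2 to 28.5), next to Lig1, the ligase of replication and long-patch repair, at 18.1 TPM (12.7 to 23.8). Lig3, the partner of Xrcc1, stood at 5.83 TPM (4.21 to 7.20).

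Among the signalling genes, the downstream kinases stood well above the apical ones. Chek1 had a median of 27.7 TPM (23.6 to 32.5) and Chek2 of 13.6 TPM (9.55 to 19.3), while Atr was at 2.71 TPM (2.19 to 3.42) and Atm at 2.32 TPM (1.86 to 2.75). The adaptors that gather on chromatin beside a break were lower still, Trp53bp1 at 1.06 TPM (0.740 to 1.55) and Mdc1 at 0.465 TPM (0.280 to 0.720). Even so, Mdc1 had 94 to 259 counts per library. Chek1 exceeded Chek2 in 12 of 12 libraries, by a median of 2.19 times (1.64 to 2.80). Atr exceeded Atm in 11 of 12, by a median of 1.15 times, and their ranges overlapped.

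The subunits of the MRN complex stood close together, with Nbn at a median of 11.3 TPM (7.87 to 14.5), Mre11a at 8.66 TPM (7.28 to 10.7) and Rad50 at 7.27 TPM (5.61 to 8.55). Mre11a exceeded Rad50 in 11 of 12 libraries, by a median of 1.26 times. In homologous recombination all 5 genes lay between 0.76 and 4.16 TPM. Palb2, which joins Brca1 to Brca2, was at a median of 3.33 TPM (2.29 to 4.16) and Brca1 at 2.91 TPM (2.27 to 3.74). Rad51c, which acts in strand exchange, was at 2.24 TPM, Brca2, a mediator of recombination, at 2.03 TPM, and Bard1, the partner of Brca1, at 1.28 TPM (0.76 to 1.75). Neighbours in this order overlapped. Brca1 exceeded Bard1 in 12 of 12 libraries, by 1.69 to 3.59 times.

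End joining showed a gap between the end-binding and the sealing step. Xrcc6 and Xrcc5, the Ku70 and Ku80 proteins that clamp a broken end as a heterodimer, stood at medians of 31.0 TPM (20.1 to 42.7) and 22.3 TPM (14.3 to 26.6), and Xrcc6 exceeded Xrcc5 in 11 of 12 libraries. Lig4, the ligase of this route, was at 1.14 TPM (0.780 to 1.56). Lig1 thus exceeded Lig3 in 12 of 12 libraries by a median of 3.15 times (2.52 to 4.12), and Lig3 exceeded Lig4 in 12 of 12 by a median of 5.39 times (3.32 to 6.08).

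In mismatch repair, Msh6, which reads single mismatches, had a median of 24.7 TPM (20.3 to 32.0). Msh3, which reads longer loops, had 2.31 TPM (1.72 to 2.86). Msh6 exceeded Msh3 in 12 of 12 libraries, by a median of 10.2 times (7.54 to 15.6). Pms2, the nuclease subunit that acts after recognition, was at 6.37 TPM (4.54 to 8.59). In nucleotide excision repair, Ercc1, part of a nuclease that cuts beside the lesion, was at 24.2 TPM (17.9 to 39.8), and Xpa, which verifies the lesion, at 15.7 TPM (12.4 to 18.8). The damage sensor Xpc was at 1.21 TPM (0.770 to 1.54) and the helicase Ercc2 at 0.640 TPM (0.330 to 0.870). Xpa exceeded Xpc 10.8 to 17.4 times, and Ercc1 exceeded Ercc2 27.4 to 71.5 times. Fancd2 and Fanci, which clamp DNA at crosslinks as a pair, were at 2.65 TPM (2.04 to 3.40) and 2.34 TPM (1.81 to 3.20), and Fancd2 was the higher in 9 of 12 libraries.

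**Figure D2:**
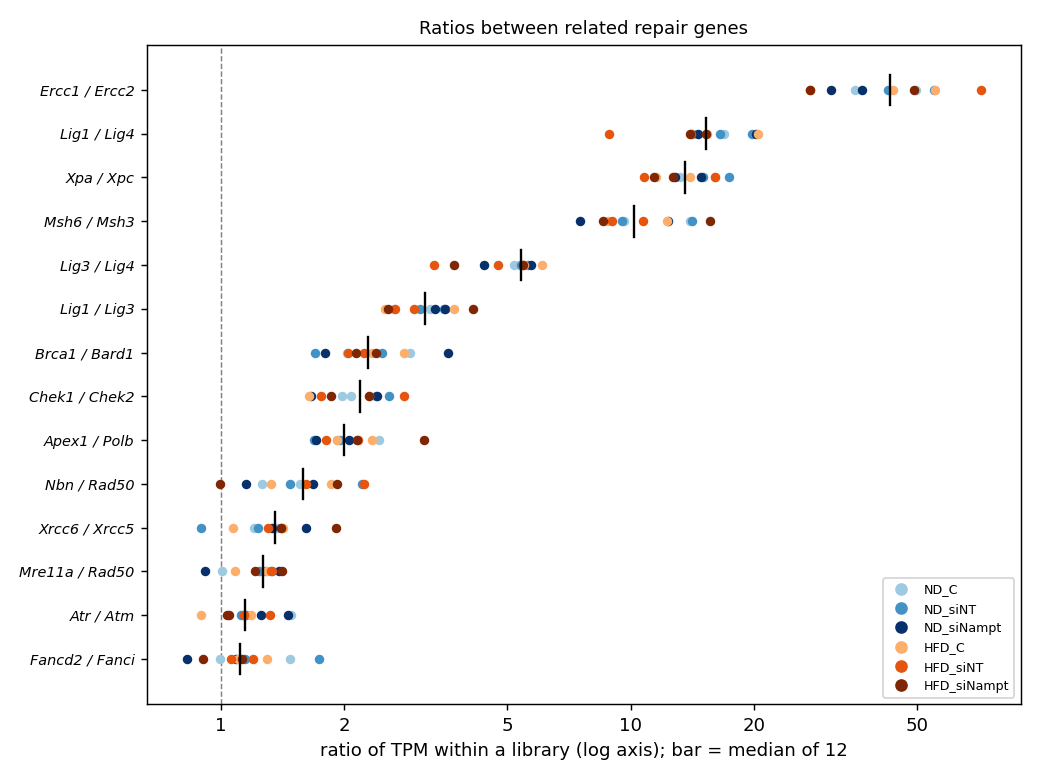
Ratio of the TPM of related genes within each library (log axis), coloured by group, with a bar at the median of 12 and a dashed line at 1. The Ercc1 to Ercc2 ratio reached 27.4 or more in each library, while those of Atr to Atm and Fancd2 to Fanci lay around 1.

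Longer transcripts had lower levels among these genes. Across the 34 genes, which are not independent replicates, transcript length and median TPM had a Spearman correlation of -0.658, and across all genes tested it was -0.336. Atm, with a mean length of 11964 bases, and Apex1, with 1307 bases, lie near opposite ends of this order. The part of length in the level differences was not tested. Exons of 20 of the 34 genes overlap another annotated gene in GRCm38, 15 of them a protein-coding gene on the opposite strand. For Apex1 the overlap with Pip4p1 covers 61.7% of its exonic bases, and for Fen1 the overlap with the antisense gene Gm10143 covers 78.8%. The sources used here do not say whether counting used the strand, so the levels of these genes may include reads of their neighbours.

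No correlation between subunits of one complex passed its test across the 12 libraries, which also share batches and groups. For Xrcc5 and Xrcc6 Pearson's r was 0.380 (permutation p = 0.209, adjusted p = 0.590 over 5 pairs) and Spearman's rho was -0.126 (permutation p = 0.703, adjusted p = 0.784). Without the 2 libraries farthest from the median of Xrcc5, r was -0.547. In the other pairs (Brca1 with Bard1, Fancd2 with Fanci, and Mre11a with Rad50 and with Nbn), r lay between -0.274 and 0.349 and rho between -0.280 and 0.210. The smallest permutation p of these 4 was 0.274 for r and 0.381 for rho, and all 5 adjusted p were 0.590 for r and 0.784 for rho. With 2 libraries left out in the same way, r of these 4 lay between -0.128 and 0.590.

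Promoters were searched for the E2F site, which drives genes of the G1 to S transition. The words searched, on both strands, were TTTCCCGC, TTTGGCGC, TTTCGCGC and TTTGCCGC, in RefSeq windows (GRCm38.p6) from 250 bases before to 50 after a start site. Of 29 members with a window, 9 held at least 1 match (31%), against 4.44% of 11138 tested genes. They were Chek2, Mdc1, Brca2, Bard1, Rad51c, Xrcc6, Lig1, Msh3 and Msh6. CCAAT, the NF-Y box, was in 51.7% of the members and 43.3% of those genes, and TTTGAA, the cell cycle homology region, in 6.9% and 14.5%. A match is a description of letters and shows no binding. The 250 bases before the start are shown for 3 matched genes of different routes, because they show how the site sits in a signalling, an end joining and a mismatch repair gene, with matches in capitals. In order, they lie at chr5:110839733-110839982 (+ strand), chr15:82016119-82016368 (+ strand) and chr13:92355004-92355253 (- strand).
Chek2: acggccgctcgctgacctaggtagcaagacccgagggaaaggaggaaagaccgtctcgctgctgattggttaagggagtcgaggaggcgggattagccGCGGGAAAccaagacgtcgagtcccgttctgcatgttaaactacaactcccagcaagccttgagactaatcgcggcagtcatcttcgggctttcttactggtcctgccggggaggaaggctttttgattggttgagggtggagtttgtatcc
Xrcc6: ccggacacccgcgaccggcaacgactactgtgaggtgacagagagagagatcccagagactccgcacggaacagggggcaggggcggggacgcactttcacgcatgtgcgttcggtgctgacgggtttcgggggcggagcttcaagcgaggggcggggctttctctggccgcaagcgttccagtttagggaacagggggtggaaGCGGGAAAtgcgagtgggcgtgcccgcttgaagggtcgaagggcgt
Msh3: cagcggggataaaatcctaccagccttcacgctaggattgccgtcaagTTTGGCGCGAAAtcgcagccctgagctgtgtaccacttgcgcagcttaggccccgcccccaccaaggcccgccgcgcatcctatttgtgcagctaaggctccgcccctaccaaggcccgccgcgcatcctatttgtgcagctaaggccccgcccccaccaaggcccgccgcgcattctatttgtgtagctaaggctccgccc
The match begins 152 bases before the start site of the window in Chek2, 46 in Xrcc6 and 202 in Msh3, where 2 matches on opposite strands overlap. The annotated spans of Chek2 and Xrcc6 begin further upstream, at chr5:110839800 and chr15:81987833. Both of their matches therefore lie inside those spans.

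The median within-group SD of these genes was 0.229 on the log2 CPM scale, against 0.322 for all genes tested. The 2 sets were not matched for level, and the 34 genes had the higher median TPM. Single genes could differ widely between replicates, as Xrcc6 did at 38.4 and 74.2 CPM in HFD_siNampt. Chek1 was the steadiest, at 0.0642, and Xrcc1 the most variable, at 0.501. HFD_siNampt held more of the extremes than any other group. Its replicate 2 had the highest value of 7 of the 34 genes, and its replicate 1 had the lowest value of 8 and the highest of 5. HFD_siNT replicate 2 also had the lowest value of 8 genes. Over all genes tested, the median absolute deviation was likewise largest in HFD_siNampt, at 0.274 in replicate 1 and 0.269 in replicate 2 (log2). The extremes in this group were thus not particular to the 34 genes.

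**Figure D3:**
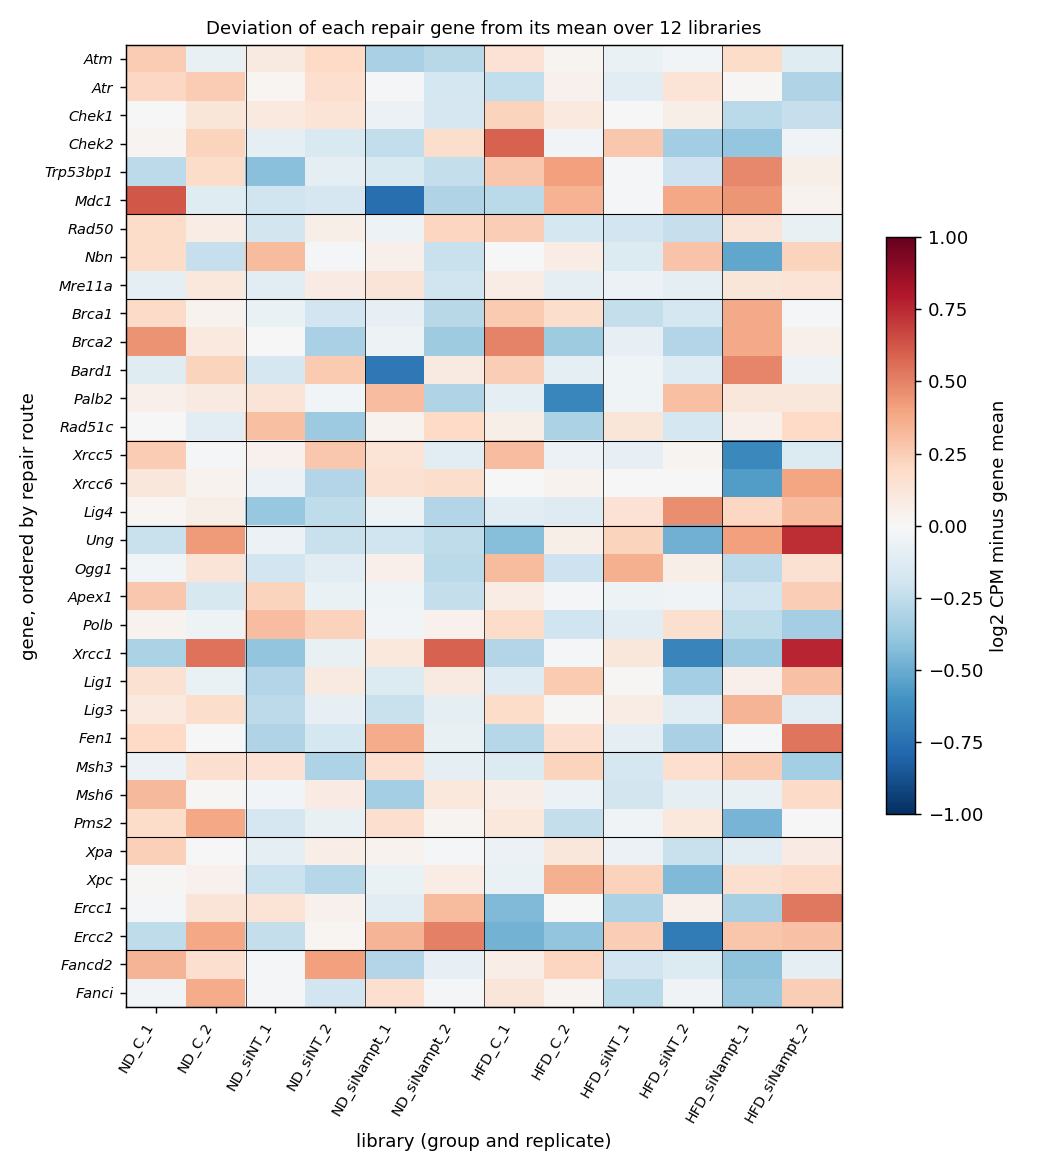
Deviation of each gene from its own mean over the 12 libraries, on the log2 CPM scale (red above, blue below), with genes in rows by repair route and libraries in columns by group. Strong colours fall on Xrcc1 and Ung in HFD_siNampt replicate 2, on Mdc1 and Bard1 in ND_siNampt replicate 1 and on single libraries of other genes, and the median deviation over the 34 genes stayed between -0.091 and 0.099 in each library.

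The comparison of siNampt with siNT over both diets addresses the effect of the Nampt siRNA against electroporation with a control siRNA. Of the 34 genes, 21 were higher and 13 lower in siNampt, with a median log2 fold change of 0.06, against 0.03 for all genes tested. It was 0.005 with a trend over gene length removed and 0.197 on log2(TPM + 0.1), where the median of all genes was 0.139. By edgeR's quasi-likelihood test with Benjamini-Hochberg adjustment, 0 of the 34 passed the threshold of 0.05, and 0% of the 14743 genes did. DESeq2 on the counts and limma on TPM also called 0 of the 34, here and in the other 8 comparisons. At an unadjusted p under 0.05 there were 4 of 34 (11.8%), near the background of 11.2%. That count was 1 without HFD_siNampt replicate 2 and 6 without HFD_siNampt replicate 1. The 4 were Fen1 and Xrcc1, higher in siNampt, and Chek1 and Polb, lower. The groups did not overlap in CPM for 3 genes, Fen1, Ercc2 and Chek1, while 6.08% of all genes had no overlap.

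Chek1 (chr9:36708482-36726658, - strand, GRCm38), the kinase that restrains the cell cycle while DNA is being copied, stood at 86.9 and 80.6 CPM in ND_siNampt and 75.3 and 77.5 CPM in HFD_siNampt. In siNT it stood at 96.8 and 99.6 CPM in ND and 90.6 and 94.3 CPM in HFD. Each siNampt library lay below each siNT library. The means were 80.1 CPM ± 5.06 and 95.3 CPM ± 3.84 (SD, n = 4), a log2 fold change of -0.25 (SE 0.097, 95% interval -0.46 to -0.045), and the edgeR adjusted p was 0.396. Within batches the difference was -0.21 and -0.29. On the TPM values the ranges of Chek1 overlapped and limma gave -0.11 with a pseudocount of 1.

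Fen1 (chr19:10199132-10204393, - strand, GRCm38) stood at 45.7 and 33.6 CPM in ND_siNampt and 35 and 51.1 CPM in HFD_siNampt. In siNT it stood at 28.6 and 31.3 CPM in ND and 32.9 and 28.1 CPM in HFD. All 4 siNampt libraries were above all 4 siNT libraries, by a log2 fold change of 0.45 (SE 0.16, 95% interval 0.12 to 0.79, edgeR adjusted p = 0.396). Within batches the difference was 0.38 and 0.48. Against the 4 controls, at 40.6, 35.5, 29.0 and 39.7 CPM, the siNampt values of Fen1 overlapped.

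Polb (chr8:22628119-22653464, - strand, GRCm38) was lower in siNampt, at 70.9 CPM ± 8.94 against 86.8 CPM ± 10.4 in siNT (SD, n = 4), with overlapping ranges and a log2 fold change of -0.29 (SE 0.12, edgeR adjusted p = 0.399). In all 4 pairs that share diet and batch Polb was lower in siNampt. On the TPM values limma gave -0.14 for Polb with a pseudocount of 1. Xrcc1 was at 19.3 CPM ± 6.35 in siNampt and 13.1 CPM ± 3.06 in siNT (SD, n = 4), a log2 fold change of 0.56 (SE 0.26, edgeR adjusted p = 0.440). The Xrcc1 difference was 0.01 in batch 1 and 1.04 in batch 2, and it was 0.30 without HFD_siNampt replicate 2. Ercc2 was at 2.44 to 2.87 CPM in siNampt and 1.22 to 2.38 CPM in siNT, a log2 fold change of 0.49 (SE 0.28, edgeR adjusted p = 0.527). The Ercc2 difference was 0.31 in batch 1 and 0.74 in batch 2, 0.75 without HFD_siNT replicate 1, and 0.25 on log2(TPM + 1).

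**Figure D4:**
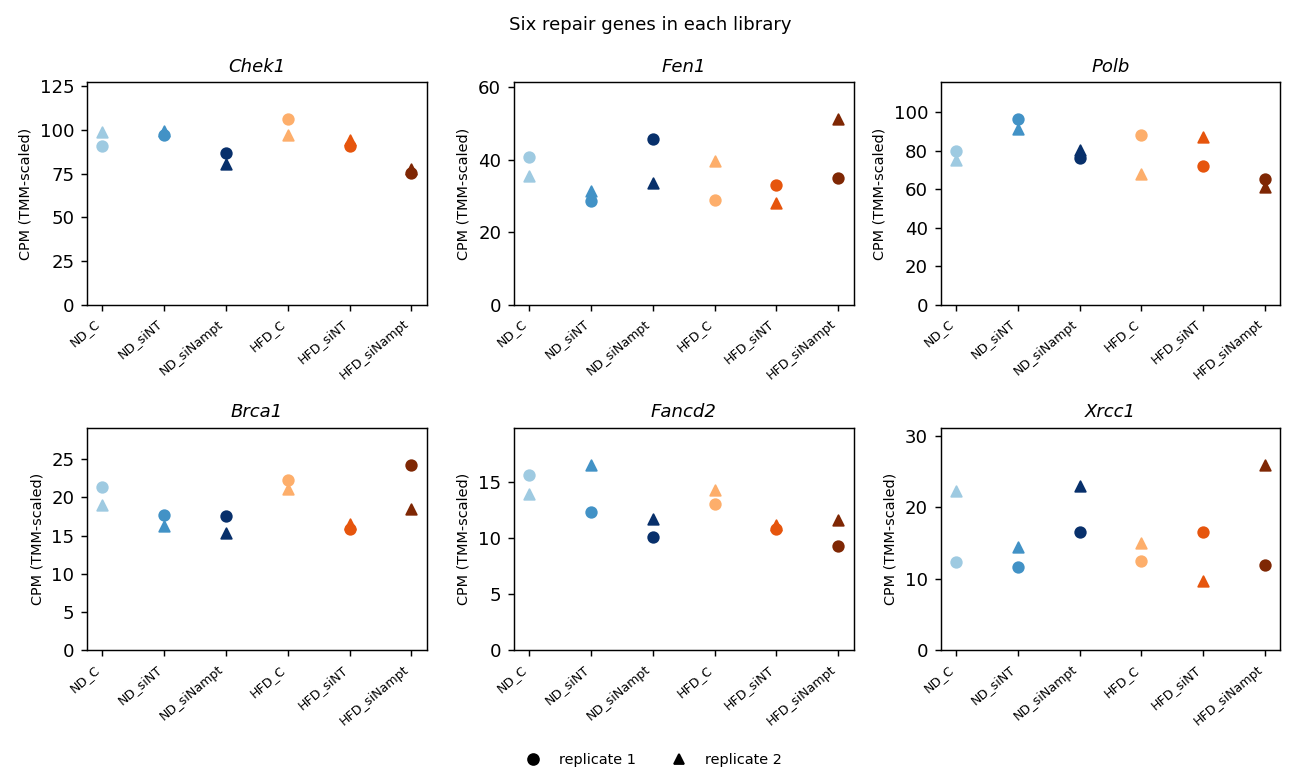
TMM-scaled CPM of Chek1, Fen1, Polb, Brca1, Fancd2 and Xrcc1 in each library, by group on the horizontal axis, with circles for replicate 1 and triangles for replicate 2. For Chek1 the 4 siNampt libraries lie at 75.3 to 86.9 CPM, below the siNT libraries at 90.6 to 99.6 CPM, while for Xrcc1 the 2 HFD_siNampt libraries stand at 11.9 and 25.9 CPM.

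By route, the 4 nucleotide excision repair genes had fold changes between 0.08 and 0.49, and 5 of the 6 signalling genes were lower in siNampt, with a route median of -0.15. Of the 5 homologous recombination genes 4 were higher, with a median of 0.13. The other routes were mixed, with 5 of 8 base excision genes higher and 1 of the Fanconi pair. In the MRN complex, end joining and mismatch repair 2 of 3 genes each were higher. Of all genes tested 52.8% were higher, and differences between routes were not tested. For 32 of the 34 genes the 95% interval lay within a 2-fold change in either direction, and Xrcc1 and Ercc2 were the exceptions. The half-width of these intervals, which are not adjusted for the number of genes, was 0.21 to 0.60 log2 units. Smaller differences were not detectable, and larger ones could miss the adjusted threshold too, as for Chek1, Fen1, Polb and Xrcc1.

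**Figure D5:**
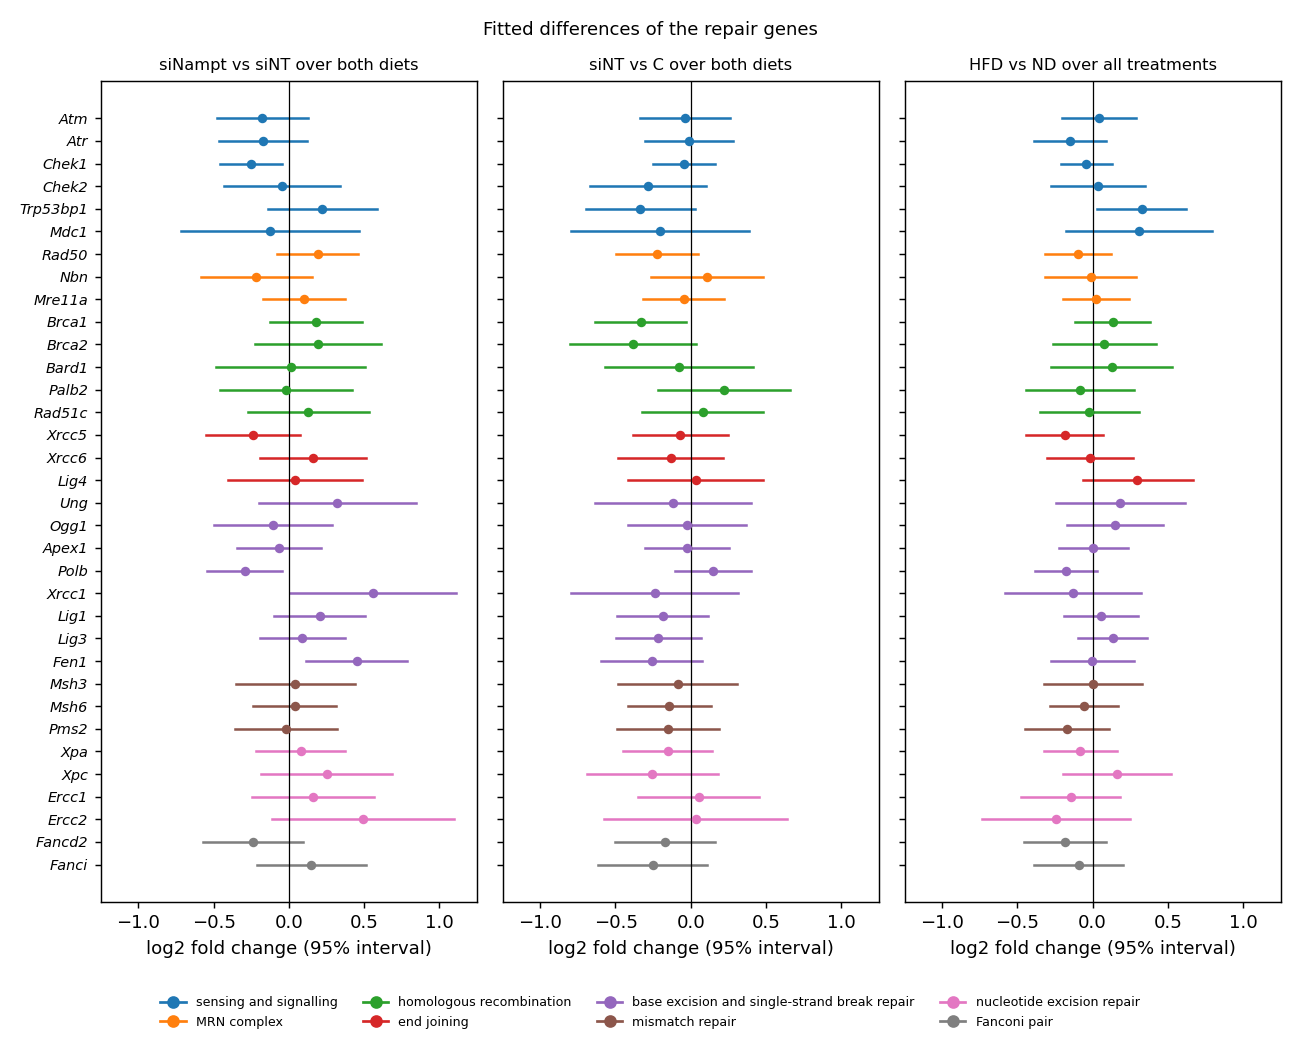
Fitted log2 fold change of each gene with its 95% interval, coloured by repair route, for siNampt against siNT, siNT against C, and HFD against ND. Most intervals cross 0, and in the middle panel 27 of the 34 points lie to the left of it.

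Within ND alone, siNampt against siNT gave 18 of 34 genes higher and a median of 0.02, against 0.01 for all genes. None of the 34 passed the adjusted threshold in edgeR, as for 0% of all genes, and 1 was under an unadjusted p of 0.05, where the background was 8.34%. That gene was Atm, at 21.8 and 22.6 CPM in ND_siNampt and 29.1 and 31.4 CPM in ND_siNT, a log2 fold change of -0.45 (SE 0.19, edgeR adjusted p = 0.588). The ND_C libraries had Atm at 32.5 and 25.9 CPM, also above both ND_siNampt libraries. On log2(TPM + 1) the Atm difference was -0.18. Fancd2 and Fen1 followed, at -0.40 (SE 0.23) and 0.41 (SE 0.24). Fancd2 was at -0.17 without ND_siNT replicate 2. Fen1 was at 0.17 without ND_siNampt replicate 1 and 0.62 without ND_siNampt replicate 2.

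In HFD alone, 21 of 34 genes were higher in siNampt than in siNT, with a median of 0.125, against 0.04 for all genes. Without HFD_siNampt replicate 2 the median of the 34 was 0.02. In edgeR 0 of 34 passed the adjusted threshold, as for 0% of all genes, and 1 was under an unadjusted p of 0.05, with a background of 4.27%. That count was 4 without HFD_siNampt replicate 2 and 5 without HFD_siNampt replicate 1. The gene was Ung, at 17.9 and 22.4 CPM in HFD_siNampt against 15.7 and 9.63 CPM in HFD_siNT, a log2 fold change of 0.67 (SE 0.30, edgeR adjusted p = 0.923). The Ung difference was 0.35 without HFD_siNT replicate 2 and 1.06 without HFD_siNT replicate 1. Fen1 was at 0.495 (SE 0.24), or 0.17 without HFD_siNampt replicate 2 and 0.75 without replicate 1 of that group. Brca1 was at 0.40 (SE 0.20), or 0.20 without HFD_siNampt replicate 1.

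The difference between the diets in this response, HFD minus ND, passed for 0 of 34 genes in edgeR, as for 0% of all genes. At an unadjusted p under 0.05 there were also 0 of 34, with a background of 3.06%. The smallest p-values belonged to Atm, at 0.53 (SE 0.27), Ung, at 0.76 (SE 0.42), and Brca1, at 0.45 (SE 0.28), each with an adjusted p of 1.00 in edgeR. Ung was at 0.43 without HFD_siNT replicate 2 and 1.14 without HFD_siNT replicate 1, and Brca1 was at 0.24 without HFD_siNampt replicate 1. This test was wide, with 95% intervals that stayed within a 2-fold change for 17 of the 34 genes.

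The comparison of siNT with C shows what went with the non-targeting siRNA. Here 27 of the 34 genes were lower in siNT, with a median log2 fold change of -0.12, while 47.8% of all genes were higher and their median was -0.01. In the wider list of other repair genes given below, 32 of 69 were higher in siNT and 37 lower, with a median of -0.02. The members' median was -0.077 with the length trend removed and -0.212 on log2(TPM + 0.1), where that of all genes was -0.113. The summed cumulus and granulosa cell markers, nearly all of it Serpine2, were also lower in siNT (65.7 to 107 TPM) than in C (108 to 147 TPM). The highest of the other markers, Has2, reached only 0.44 TPM in any library. The part of this sum in these values was not tested. All 6 signalling genes, all 3 mismatch repair genes and both Fanconi genes had negative fold changes, with none past the threshold. By edgeR 0 of 34 passed after adjustment, as for 0% of all genes. A single gene, Brca1, was under an unadjusted p of 0.05 (2.94% of the 34, with a background of 4.40%). Brca1 and Xrcc6 had no overlap between groups, where 3.27% of all genes had none.

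Brca1 (chr11:101488761-101551955, - strand, GRCm38), a ubiquitin ligase that directs breaks to homologous recombination, stood at 17.7 and 16.3 CPM in ND_siNT and 15.8 and 16.5 CPM in HFD_siNT. The controls stood at 21.3 and 19.0 CPM in ND and 22.3 and 21.1 CPM in HFD. Each siNT library was thus below each control, by a log2 fold change of -0.33 (SE 0.14, 95% interval -0.64 to -0.03, edgeR adjusted p = 0.984). Brca1 in siNampt ranged from 15.4 to 24.2 CPM and covered both groups. Brca2 was at 19.9 CPM ± 2.20 in siNT and 25.9 CPM ± 6.54 in C (SD, n = 4), a log2 fold change of -0.38 (SE 0.20, edgeR adjusted p = 0.984). Trp53bp1 was at 9.19 CPM ± 1.09 and 11.7 CPM ± 2.19 (SD, n = 4), lower in siNT in each of the 4 pairs matched for diet and batch. Xrcc6 was at 46.1 to 56.8 CPM in siNT and 56.9 to 61.2 CPM in C, a log2 fold change of -0.13 (SE 0.16), or -0.058 without ND_siNT replicate 2.

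The comparison of siNampt with C uses the same 4 control libraries as the one before and the same siNampt libraries as the first, so its values stand beside theirs and are no separate evidence. In siNampt 23 of 34 genes were lower, with a median of -0.10, against 0.01 for all genes. In edgeR 0 of 34 passed after adjustment, as for 0% of all genes. Chek1 and Fancd2 were under an unadjusted p of 0.05 (5.88% of the 34, with a background of 3.80%) and were also the genes without overlap, of which all genes had 2.31%. Chek1 stood at 91.0, 98.9, 106 and 96.9 CPM in the controls, above the 4 siNampt libraries, a log2 fold change of -0.295 (SE 0.097, 95% interval -0.50 to -0.09, edgeR adjusted p = 0.999). Fancd2 (chr6:113531640-113597020, + strand, GRCm38) stood at 10.1, 11.7, 9.33 and 11.6 CPM in siNampt and at 15.6, 13.9, 13.0 and 14.3 CPM in C, a log2 fold change of -0.41 (SE 0.16, edgeR adjusted p = 0.999). Its siNT values, 10.8 to 16.5 CPM, overlapped both. Xrcc5 ranged from 33.7 to 58 CPM in siNampt and from 50.6 to 65.4 CPM in C, a log2 fold change of -0.31 (SE 0.15), or -0.18 without HFD_siNampt replicate 1 and -0.197 without HFD_C replicate 1.

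Diet had 16 of the 34 genes higher in HFD than in ND over all treatments, and the median was -0.007, against 0.003 for all genes. In edgeR 0 of 34 passed after adjustment, as for 0% of all genes, and 0 of 34 were without overlap between the 6 HFD and 6 ND libraries, as for 0.0950% of all genes. Trp53bp1 (chr2:121194835-121296354, - strand, GRCm38), which shields break ends from resection, was the one gene under an unadjusted p of 0.05 (2.94% of the 34, with a background of 3.22%). It had 9 to 14.5 CPM in HFD (mean 11.8 CPM ± 2.15, SD, n = 6) and 7.75 to 11.8 CPM in ND (mean 9.35 CPM ± 1.38, SD, n = 6), with overlapping ranges and a log2 fold change of 0.33 (SE 0.14, edgeR adjusted p = 1.00). Of 6 pairs matched for treatment and batch, 5 had Trp53bp1 higher in HFD, and the difference was 0.52 in batch 1 and 0.14 in batch 2. Polb was at -0.18 (SE 0.096) and Lig4 at 0.30 (SE 0.17). All 34 intervals lay within a 2-fold change in either direction.

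In controls alone, HFD against ND gave 11 of 34 genes higher and a median of -0.06, against -0.01 for all genes. In edgeR 0 of 34 passed, as for 0% of all genes, and 0 of 34 were under an unadjusted p of 0.05, with a background of 2.81%. The smallest p-values were those of Atr, at -0.33 (SE 0.20), Pms2, at -0.35 (SE 0.22), and Trp53bp1, at 0.365 (SE 0.25). Atr was at -0.18 without HFD_C replicate 1 and Pms2 at -0.19 without HFD_C replicate 2. Trp53bp1 was at 0.165 without ND_C replicate 1 and 0.60 without ND_C replicate 2.

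Batch 2 against batch 1, fitted beside diet and treatment, gave 18 of 34 genes higher and a median of 0.007. In edgeR 0 of 34 passed after adjustment, against 0.549% of all genes (81). Brca2 and Ercc1 were under an unadjusted p of 0.05 (5.88% of the 34, with a background of 9.95%). Brca2 was lower in batch 2, at -0.39 (SE 0.13, edgeR adjusted p = 0.254), and Ercc1 higher, at 0.36 (SE 0.125, edgeR adjusted p = 0.306). Xrcc1 followed at 0.385 (SE 0.19).

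A wider list of 70 other repair genes, of which 69 were tested, held 0 genes past the adjusted threshold in edgeR in each of the 9 comparisons. For siNampt against siNT over both diets, 39 of the 69 were higher, with a median of 0.03, and 10 were under an unadjusted p of 0.05 (14.5%, with a background of 11.2%), 5 in each direction. The smallest p-values were those of Ube2t, the conjugating enzyme that acts on Fancd2, at 72.2 CPM ± 8.54 against 93.4 CPM ± 7.95 (SD, n = 4; log2 -0.37, SE 0.12), Fancc, of the Fanconi core complex, at 0.68 (SE 0.25), and Ddb1, a damage-binding ligase adaptor, at 173 CPM ± 12.4 against 141 CPM ± 4.31 (SD, n = 4; log2 0.295, SE 0.11). Each had an edgeR adjusted p of 0.396. For diet over all treatments, 36 of 69 were higher and 0 were under an unadjusted p of 0.05, with a background of 3.22%. The smallest p-values there were those of Fancc, at 0.38 (SE 0.20), Rad54b, at 0.25 (SE 0.13), and Xrcc4, at -0.23 (SE 0.13).

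Genes of DNA replication were read beside them. All 39 of this list were tested and 0 passed the adjusted threshold in edgeR in any of the 9 comparisons. For siNampt against siNT over both diets 6 of the 39 were under an unadjusted p of 0.05 (15.4%, with a background of 11.2%). Lower in siNampt were Pcna, the sliding clamp of DNA polymerases, Rfc4, of the clamp loader, Rpa3, of the single-strand binding complex, and the cyclin Ccne2, and higher were Mcm7, of the replicative helicase, and the polymerase subunit Pold1. Pcna was at 285 CPM ± 16.1 in siNampt and 354 CPM ± 38.0 in siNT (SD, n = 4), with no overlap, a log2 fold change of -0.31 (SE 0.10, edgeR adjusted p = 0.396). These 6 were named after their values were seen. The median over the 39 was 0.04 for siNampt against siNT (21 of 39 higher), -0.07 for siNT against C (15 of 39 higher), -0.04 for siNampt against C (17 of 39 higher) and -0.02 for diet (14 of 39 higher).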

How the data were processed

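The deposited files give, per the file headers, RSEM's expected count, TPM and FPKM for each gene and library, with lengths. Per the submitters' processing notes the tools were STAR 2.7.10 and RSEM 1.2.28, on mm10. Strand setting and annotation release are not given in the sources used here. Non-whole values made up 6.43% of the expected counts, which were rounded. The deposited TPM values served for levels and the deposited FPKM values were not used. Genes were filtered with filterByExpr (minimum count 10), scaled by TMM and tested by quasi-likelihood in edgeR 4.0.16 (R 4.3.3; two-sided, adjusted over 14743 genes, threshold 0.05). The 12 libraries entered each fit. A model with diet and treatment as additive terms served the comparisons over both diets and of diet, one with a batch term gave the batch difference, and one of 6 group means gave the others. SE is the absolute log2 fold change over the square root of F. The members and lists were chosen with earlier results of these data known. All 34 members are named, with fuller values for the 3 smallest p-values of a comparison, the highest and lowest TPM of a route, and groups without overlap. Of the wider list, the 3 smallest p-values of 2 comparisons are named.

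The batch labels equal the replicate numbers, so these pair the libraries. Differences between replicates correlated between groups at -0.058 to 0.22 (15 pairs of groups, 6 above 0.1). No group's replicates agreed within counting noise, since 45.4% to 57.2% of genes differed by more than 3 counting SDs. The members' median SE was 0.167 for siNampt against siNT over both diets. On simulated data for that comparison (14408 genes) the test recovered 82 of 100 genes with 2-fold and 100 of 100 with 4-fold changes, with 12 false calls. The changed genes were drawn above a floor of mean CPM, and no diet or batch effect was simulated. Recovery was thus not measured for members below that floor, such as Mdc1 and Ercc2, nor for changes under 2-fold. All changed genes were simulated together, which eases the adjusted threshold, so recovery of a gene changed alone was not measured. Alternatives were DESeq2 1.42.0, RLE size factors, 2 other filters, the batch as a block, limma 3.58.1 on TPM, only the libraries compared, removal of a length trend and leaving out each library.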

Additional observations from a re-analysis of the deposited data

Results flagged for a closer look

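In 4 of 170 sets of libraries (34 genes in 3 treatments of 4 libraries and 2 diets of 6), 1 library stood apart from the others by Dixon's 95% criterion, which chance meets in about 1 set in 20. Rad50 was at 37.4 CPM in ND_siNT replicate 2, against 30.7 to 31.5 CPM in the other siNT libraries. Mre11a was at 21.5 CPM in ND_siNampt replicate 2, against 26.9 to 27.2 CPM in the other siNampt libraries. Ung was at 18.1 CPM in ND_C replicate 2, against 11.3 to 12.9 CPM in the other ND libraries. Apex1 was at 203 CPM in ND_siNT replicate 1, against 166 to 170 CPM in the other siNT libraries.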

How the results depend on the processing

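The count of members past the adjusted threshold was 0 in each of the 9 comparisons under every alternative run, and the replicate block changed no call. The smallest adjusted p of a member, 0.115, was for batch. With the replicate block the median over the members was 0.061 for siNampt against siNT, -0.113 for siNT against C and -0.01 for diet. No named member changed sign. With limma on log2(TPM + 1) the medians were 0.17 for siNampt against siNT over both diets, -0.173 for siNT against C, -0.055 for siNampt against C, 0.149 in ND, 0.187 in HFD and 0.024 for the difference between diets. With a pseudocount of 0.1 they were 0.197, -0.212 (siNT against C), 0.191 (ND), 0.218 (HFD), 0.025 for both the diet difference in response and diet, -0.1 for diet in controls and 0.044 for batch. On that scale the medians of all genes were 0.139 for siNampt against siNT and -0.113 for siNT against C, so those of all genes moved too. With the length trend removed the medians were 0.005 for siNampt against siNT, -0.077 for siNT against C and 0.07 in HFD. The stricter filter gave 0.106 for the difference between diets. The cause of these moves was not tested. Leaving out 1 library gave 0.013 to 0.1 for siNampt against siNT, -0.143 to -0.099 for siNT against C, -0.12 to -0.052 for siNampt against C, -0.067 to 0.021 for diet, -0.011 to 0.029 in ND, 0.023 to 0.16 in HFD, -0.033 to 0.176 for the difference between diets, -0.115 to -0.016 for diet in controls and -0.018 to 0.038 for batch. The lowest values for siNampt against siNT, in HFD and for the difference came without HFD_siNampt replicate 2. Without a filter edgeR called 119 genes for siNampt against siNT, none of them a member. The lowest count of a member was 52, for Ercc2. Members at an unadjusted p under 0.05 numbered 0 to 3 in the other 7 comparisons when 1 library was left out, except for 4 in siNampt against C without ND_C replicate 2.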
